A study of Mus musculus with 2 samples.

Results

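The genes described here are 9 members of the Lin28 and let-7 circuit in mouse embryonic stem (ES) cells labelled as a Dgcr8 knockout. They are the RNA-binding protein genes Lin28a and Lin28b, the nuclease gene Dis3l2, and 6 genes known as targets of let-7 microRNAs, namely Trim71, Hmga2, Igf2bp1, Igf2bp2, Igf2bp3 and Nras. They were listed by name, as known parts of this circuit, and matched to Ensembl identifiers through GENCODE M21. Each of the 9 had a row in both count tables, out of 43629 genes in all.

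The ES cells, which derive from the blastocyst, are labelled Dgcr8 knockout (by paired CRISPR/Cas9 editing), 129/Ola background, passage 7. The codes KO2 and d5 in the sample titles are not explained. Their polyadenylated RNA was sequenced as 2 libraries of this 1 genotype, replicates A and B, with totals of 27872396 counts in A and 30327146 in B. No wild-type library was analysed here, so the values are levels in the knockout cells and not changes caused by the knockout. Whether these replicates are separate cultures or clones is not stated. The p-values below ask only whether these 2 libraries differ beyond counting error, and such a difference may be technical.

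Dgcr8 itself had 1253 counts in A and 1942 in B, and since counts per gene do not show which exons were read, they do not check the genotype. The labelled cell type was checked with marker genes. All 5 ES cell markers were abundant, between 473 CPM (Sox2) and 1805 CPM (Pou5f1) in A and between 313 and 1542 CPM in B, where CPM is counts per 1000000 counts of a library. The 5 fibroblast markers summed to 45.1 CPM in A and 27.1 CPM in B, most of it from Thy1. Thy1 held 876 counts in A and 664 in B, or 31.4 CPM in A and 21.9 CPM in B, so it was clearly detected. Pdgfrb held 297 counts in A and 109 in B, and Col1a1 held 81 in A and 37 in B. Col1a2 held 2 counts in A and 7 in B, and Col3a1 held 1 in A and 5 in B. The 8 markers of differentiated lineages summed to 8.90 CPM in A and 8.28 CPM in B, and Neurog2 was at 0 in A with 1 count in B.

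let-7 is a family of microRNAs that accumulates as cells differentiate and represses growth-promoting and embryonic genes. LIN28A and LIN28B bind let-7 precursors. LIN28A recruits terminal uridylyltransferases, and the nuclease DIS3L2 degrades the uridylated precursors. Mature let-7 in turn represses the Lin28 messenger RNAs, so that each side of the circuit limits the other. DGCR8 works with the nuclease DROSHA, and together they make the first cut in let-7 biogenesis.

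The mature let-7 sequences are shown because their seed, bases 2 to 8 from the 5′ end, in capitals, is what pairs with the targets below. They are from RefSeq on GRCm38.p6.
let-7a: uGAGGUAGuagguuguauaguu
let-7b: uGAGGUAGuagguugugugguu
let-7c: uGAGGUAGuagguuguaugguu
let-7d: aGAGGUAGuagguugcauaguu
let-7e: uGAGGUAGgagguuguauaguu
let-7f: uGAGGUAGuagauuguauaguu
let-7g: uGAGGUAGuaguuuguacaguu
let-7i: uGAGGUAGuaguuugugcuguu
miR-98: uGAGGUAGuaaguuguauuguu
All 9 of these mature microRNAs have the seed GAGGUAG, so a transcript with the matching letters CTACCTC presents the same match to each of them. They differ outside the seed at a few bases, and let-7d also at its first base.

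LIN28 proteins contact let-7 precursors at GGAG, which lies in the loop between the 5′ and 3′ arms. Of 11 let-7 family hairpins with both arms annotated, 8 (72.7%) held GGAG in the loop, as did 52 of all 644 mouse hairpins with both arms in the same table (8.07%). The loops below, from RefSeq on GRCm38.p6, are shown 5′ to 3′ on the strand of the microRNA with GGAG in capitals, for a pair of hairpins that hold it and for Mirlet7b, which does not.
Mirlet7g: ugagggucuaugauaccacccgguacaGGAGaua
Mirlet7a-1: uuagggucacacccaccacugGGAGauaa
Mirlet7b: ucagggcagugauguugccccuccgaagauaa
The other hairpins without GGAG in the loop were Mirlet7c-2 and Mir98. A match is a description of the sequence, and binding was not measured in these cells.

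The seed match CTACCTC was searched on the transcript strand of the longest annotated 3′ untranslated region (UTR) of each gene in GENCODE M21, with overlapping matches counted. Of the 9 genes 8 held at least 1 match, with 21 matches in all, or 0.699 per 1000 bases. Among 20652 protein-coding genes 1875 (9.08%) held a match, at 0.0702 matches per 1000 bases, with shorter UTRs (median 967 bases against 3014 bases for the 9 genes). The targets among the 9 were listed because they are known to respond to let-7, so this excess is a description of the list.

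Lin28b, Trim71, Hmga2 and Igf2bp1 each held 4 matches. Among genes whose UTR length was within 25% of theirs, at least as many matches were found in 0.241% for Lin28b, 0.487% for Trim71, 0.140% for Hmga2 and 0.268% for Igf2bp1. Lin28a held 2 matches in 2775 bases, and 1.96% of genes of like UTR length held as many or more. Igf2bp2, Igf2bp3 and Nras held 1 match each. At least 1 was also held by 11.6% of genes of like UTR length for Igf2bp2, 13.0% for Igf2bp3 and 19.0% for Nras.

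Dis3l2 acts on let-7 and is not listed as its target, and its UTR of 350 bases held no match. Only 2.67% of genes of like UTR length held a match, so its absence there is common. Sites where an A follows the 7 letters are the form that is usually most effective. All 4 sites of Trim71 and both sites of Lin28a had this A, whereas 1 of 4 sites had it in Lin28b and in Hmga2, 3 of 4 in Igf2bp1, the single sites of Igf2bp2 and Igf2bp3 did, and the single site of Nras did not.

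The first match of the main genes is shown with the 22 bases before it and the base after it, with the 7 letters in capitals, 5′ to 3′ on the transcript strand, from GENCODE M21 transcripts. All lie in 3′ UTRs, and positions are on GRCm38.
Lin28a, chr4:134005189-134005218, minus strand: ttggagtgcacagcctgttgaaCTACCTCa
Lin28b, chr10:45381022-45381051, minus strand: tcccttcacccgggcgggaagtCTACCTCa
Trim71, chr9:114512472-114512501, minus strand: aaagtacaacattgcctaagtcCTACCTCa
Hmga2, chr10:120364224-120364253, minus strand: agggggcgccgacattcaatttCTACCTCa
Igf2bp1, chr11:95961778-95961807, minus strand: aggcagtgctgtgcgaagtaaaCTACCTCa
Nras, chr3:103064352-103064381, plus strand: acctgagacctcttcagaataaCTACCTCc
The sites of Lin28b, Trim71, Hmga2 and Nras lie near the stop codon, with the capitals starting at bases 36, 166, 58 and 187 of the UTR, and those of Lin28a and Igf2bp1 start at bases 909 and 1715. The Nras site ends in C, not A.

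**Figure D1:**
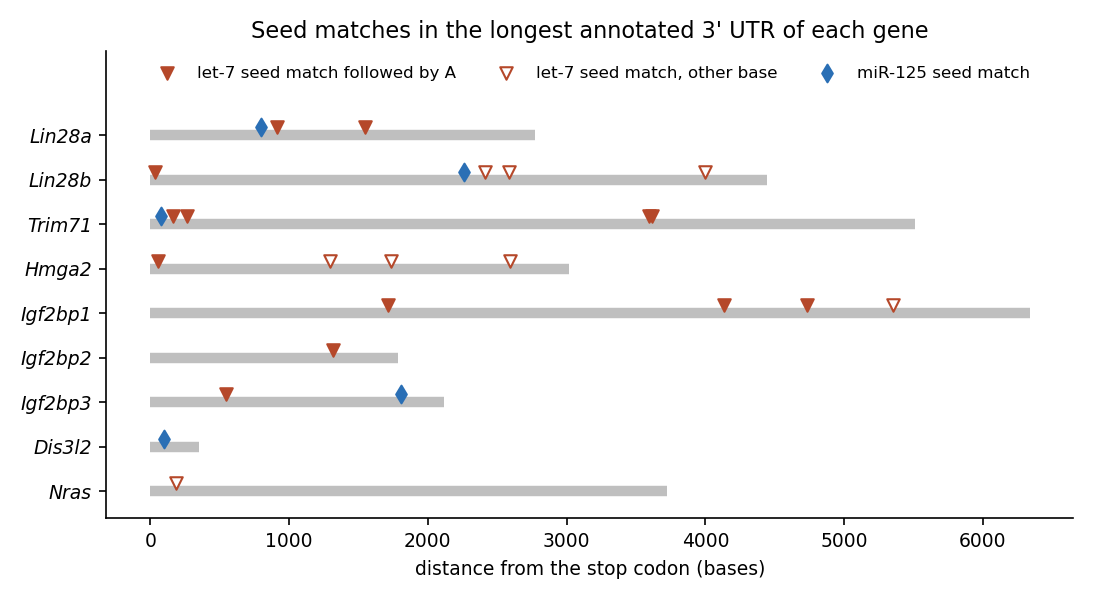
Grey bars are the longest annotated 3′ UTR of each gene, drawn to scale by distance from the stop codon in bases. Filled red triangles are let-7 seed matches followed by A, open triangles those followed by another base, and blue diamonds miR-125 seed matches. Trim71 has 4 filled triangles, of which those at bases 3591 and 3617 overlap at this scale, and Dis3l2 has no let-7 match.

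Of the LIN28 genes, Lin28a (ENSMUSG00000050966, GRCm38 chr4:134003330-134018841, minus strand) was the abundant one. It was read 5975 times in A and 8440 times in B. To compare genes, levels were taken per 1000 bases of the union of a gene's exons and per 1000000 counts of the library (RPKM). On this scale Lin28a reached 53.6 RPKM in A and 69.6 RPKM in B, or 61.6 ± 11.3 RPKM (SD, n = 2), the highest level of the 9 genes in each library. Its mean lay at percentile 92.4 of 13320 expressed genes, those with a GENCODE length and at least 1 CPM in each library. Their median was 6.55 RPKM. In RNA of bulk cells, fewer cells that express a gene and less of its RNA per cell cannot be told apart.

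Lin28b (ENSMUSG00000063804, chr10:45376620-45486395, minus strand), the paralog that also binds let-7 precursors, was represented by 498 counts in A and 1134 in B. This gave 1.97 RPKM in A and 4.12 RPKM in B (3.05 ± 1.52), below the median gene in both libraries. The RPKM ratio of Lin28a over Lin28b was 27.2 in A and 16.9 in B. With the longest protein-coding transcript as the length, an alternative added after the data were seen, the mean ratio was 14.98 in place of 22.1. Lin28a exceeded Lin28b in both libraries under either length.

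Dis3l2 (ENSMUSG00000053333, chr1:86703808-87050095, plus strand), whose product degrades uridylated let-7 precursors, held 758 counts in A and 540 in B. Per length, it reached 3.06 RPKM in A and 2.0 RPKM in B (2.53 ± 0.746). It was the only one of the 9 genes with the higher level in A. Its level depended on the length used, and its longest annotated transcript retains an intron. Over its longest protein-coding transcript of 3154 bases in place of 8901 bases of exons, it reached 8.62 RPKM in A and 5.65 RPKM in B.

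Trim71 (ENSMUSG00000079259, chr9:114507133-114564369, minus strand) is the mouse homolog of worm lin-41, a classical let-7 target, and encodes an RNA-binding ubiquitin ligase of early embryos. Its 8467 counts in A and 12909 in B gave 32.6 RPKM in A and 45.6 RPKM in B (39.1 ± 9.24). Its mean lay at percentile 87.7 of expressed genes.

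Hmga2 (ENSMUSG00000056758, chr10:120361275-120476469, minus strand) encodes an architectural chromatin protein that is another classical let-7 target. Library A had 252 counts of it and library B 831. In A this made 9.04 CPM, with an exact 95% Poisson interval of 7.96 to 10.2 CPM, and in B 27.4 CPM, with an interval of 25.6 to 29.3 CPM. These intervals are far apart, so counting error does not cover the gap. Per length, its 1.34 RPKM in A and 4.05 RPKM in B (2.69 ± 1.92) lay below the median of expressed genes in both libraries. Its SD was 71.2% of its mean, the largest such spread among the 9. Of the other genes with 4 let-7 matches, Trim71 and Igf2bp1 were far above Hmga2 in both libraries, and Lin28b was at a like low level. Stretches of Hmga2 of 295 to 488 bases match Gm20498, Cox16 and Gm38158 at over 90% identity, and where the counting could split such reads its level is uncertain. Gm38158 had 3 counts in A and 29 in B. The others had more in A, Cox16 with 113 in A and 68 in B and Gm20498 with 11 in A and 8 in B.

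The Igf2bp genes encode a family of messenger RNA-binding proteins of oocytes, embryos and tumours. Igf2bp1 (ENSMUSG00000013415, chr11:95957163-96005940, minus strand) had the most counts of the 9 genes, 11586 in A and 19732 in B. It reached 42.9 RPKM in A and 67.2 RPKM in B (55.1 ± 17.2). Igf2bp2 (ENSMUSG00000033581, chr16:22059009-22163299, minus strand), with 2589 counts in A and 3740 in B, reached 12.5 RPKM in A and 16.7 RPKM in B (14.6 ± 2.91). Both lay above the median of expressed genes.

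Igf2bp3 (ENSMUSG00000029814, chr6:49085223-49214957, minus strand) was the lowest of the family, with 501 counts in A and 998 in B, or 2.20 RPKM in A and 4.03 RPKM in B (3.12 ± 1.29). Of the summed RPKM of the family, Igf2bp1 made up 74.4% in A and 76.5% in B, Igf2bp2 21.8% in A and 19.0% in B, and Igf2bp3 3.82% in A and 4.59% in B. The shares thus differed little between the libraries, while the sum was 57.7 RPKM in A and 87.9 RPKM in B. Over the longest protein-coding transcripts the mean share of Igf2bp1 was 65.2% in place of 75.4%. Igf2bp3 shares 1529 bases (18.7% of its exons) with the opposite-strand gene Malsu1, which held 600 counts in A and 506 in B, so its level is uncertain where strand was not used in counting.

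Nras (ENSMUSG00000027852, chr3:103058285-103067914, plus strand) encodes a growth-signalling GTPase of the Ras family, whose worm counterpart is let-60, a let-7 target. With 2914 counts in A and 4025 in B, it stood at 19.6 RPKM in A and 24.9 RPKM in B (22.3 ± 3.74). Its SD of 16.8% of the mean was the smallest spread of the 9.

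**Figure D2:**
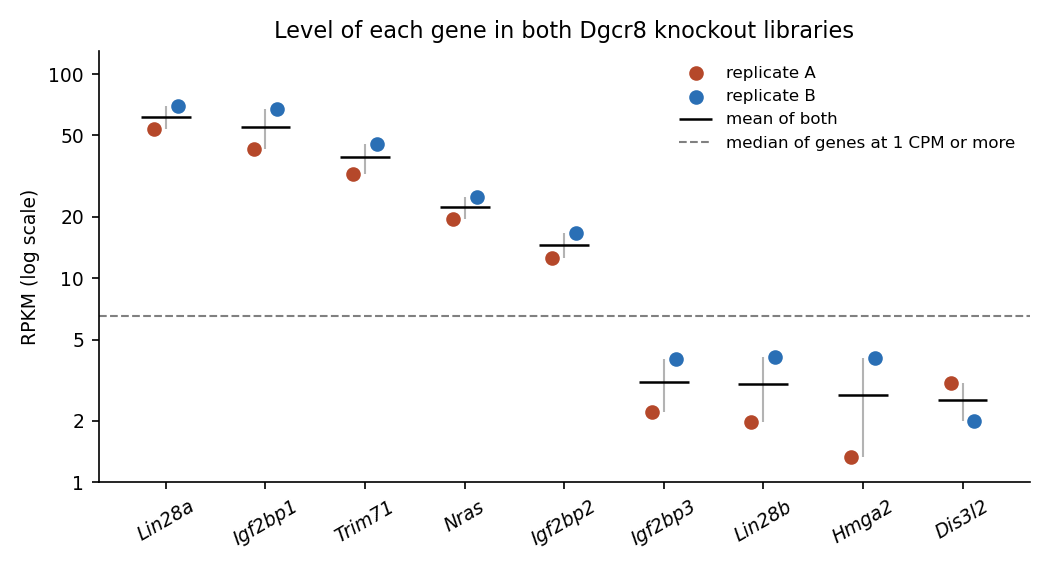
Level in RPKM (log scale) of each gene in replicate A (red, left) and replicate B (blue, right), with the mean as a black line and the median of expressed genes (6.55 RPKM) dashed. Lin28a, Igf2bp1, Trim71, Nras and Igf2bp2 lie above the dashed line in both libraries and the other 4 genes below it, with B above A for every gene but Dis3l2.

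In the order of mean RPKM, the ranges over A and B overlapped between Lin28a and Igf2bp1 and between Igf2bp1 and Trim71. Compared within a library, Lin28a was 1.2-fold above Igf2bp1 in A and 1.04-fold in B, and Igf2bp1 was 1.32-fold above Trim71 in A and 1.47-fold in B. Within each library, the order Lin28a, Igf2bp1, Trim71, Nras and Igf2bp2 held, and the ranges of Trim71, Nras and Igf2bp2 were separate. Igf2bp3, Lin28b, Hmga2 and Dis3l2 followed after a gap, Igf2bp2 being 5.70-fold above Igf2bp3 in A and 4.13-fold in B. These 4 overlapped with their neighbours and changed places, since Dis3l2 led them in A and was last in B. Over the longest protein-coding transcripts 3 of the 9 genes kept their rank, and Igf2bp2 (27.7 RPKM, against 14.6 over the union of exons) and Nras (26.5 RPKM) changed places. The low genes also moved, Dis3l2 to 7.13 RPKM, Igf2bp3 to 5.86 RPKM, Lin28b to 5.11 RPKM and Hmga2 to 4.78 RPKM by mean. By mean, Dis3l2 thus went from last to first of these 4, while the others kept their order among themselves. All 4 low genes stayed below the median of expressed protein-coding genes on that scale, 9.29 RPKM, in both libraries.

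The libraries were then compared by an exact two-sided binomial test of the count in A given both counts, with library sizes scaled by TMM and Benjamini-Hochberg adjustment over the 14583 genes that reached 1 CPM in A or B. The test compares these libraries, not conditions. All 9 genes were called, with 1 higher in A and 8 higher in B. Across all genes tested 76.5% were called, 38.2% higher in A and 38.3% higher in B, so a call by itself sets none of the 9 apart. The median log2 ratio of A over B, with log2(CPM + 0.5) after TMM scaling, which understates ratios of low genes, was -0.58 over the 9 genes and 0.01 over all genes tested. Without TMM the median of all genes moved to 0.10, and the calls of the 9 stayed as they were. Of the 9 adjusted p-values, the largest was 4.0e-10, for Dis3l2.

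Hmga2 had the lowest ratio of A over B, a log2 ratio of -1.64, or 0.321 times the level in B (exact binomial test, adjusted p = 3.7e-69). This lay at percentile 0.865 of the ratios of 9537 genes averaging 10 CPM or more. Lin28b followed at -1.14 and Igf2bp3 at -0.95, both below Lin28a at -0.47 and Igf2bp2 at -0.50. Trim71 stood at -0.58, Igf2bp1 at -0.74, Nras at -0.44 and Dis3l2 at 0.51. The SD of the ratio over those 9537 genes was 0.61, so Lin28a, Trim71, Igf2bp2, Dis3l2 and Nras lay within 1 SD of equal levels and the other 4 genes beyond it. Of the fibroblast markers, the 3 that were tested, Thy1, Pdgfrb and Col1a1, were also called, all higher in A. Col1a2 and Col3a1 were under the filter and not tested. Among the lineage markers Sox1 was called higher in A (6.60 CPM in A and 3.07 CPM in B). Gata6 was called higher in B (0.682 CPM in A and 2.34 CPM in B). The part of these markers in the ratios of the 9 genes was not tested.

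**Figure D3:**
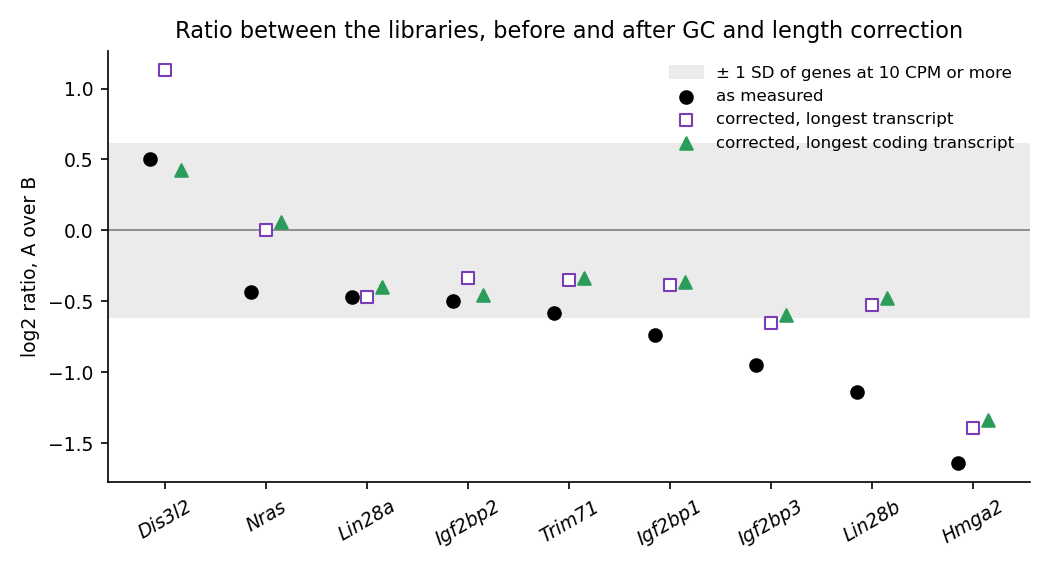
The log2 ratio of A over B of each gene as measured (black circles), after correction for GC content and length of the longest transcript (open squares) and of the longest coding transcript (green triangles). The grey band is 1 SD (0.61) of genes at 10 CPM or more, and Hmga2 lies below it in all 3 forms while Nras moves to about 0 after correction.

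GC content and transcript length moved with the ratio between libraries across all genes tested. In 10 classes of about 1451 genes each, the class of lowest GC content had a median log2 ratio of A over B of -0.53, and the class of highest 0.57. By length of the longest transcript, the shortest class stood at 0.31 and the longest at -0.55. All 9 genes fell in the longer 5 of the 10 length classes, with Trim71 and Igf2bp1 in the longest, and Lin28b, Dis3l2 and Nras fell in the lowest 2 GC classes.

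Corrected for both properties by a smooth fit over all genes tested, a value with no test, 7 of the 8 genes lower in A stayed below 0. Hmga2 stood at -1.39, Igf2bp3 at -0.65, Lin28b at -0.53, Lin28a at -0.47, Igf2bp1 at -0.38, Trim71 at -0.35 and Igf2bp2 at -0.33. Nras moved to 0.0032, and to 0.056 with the properties of its coding transcript. Dis3l2 moved to 1.13 with its longest transcript, an intron-retaining form of 5241 bases and 39.9% GC, and to 0.42 with its coding transcript of 52.1% GC. The ratio of Lin28b thus shrank to about that of Lin28a, while that of Hmga2 kept most of its size.

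**Figure D4:**
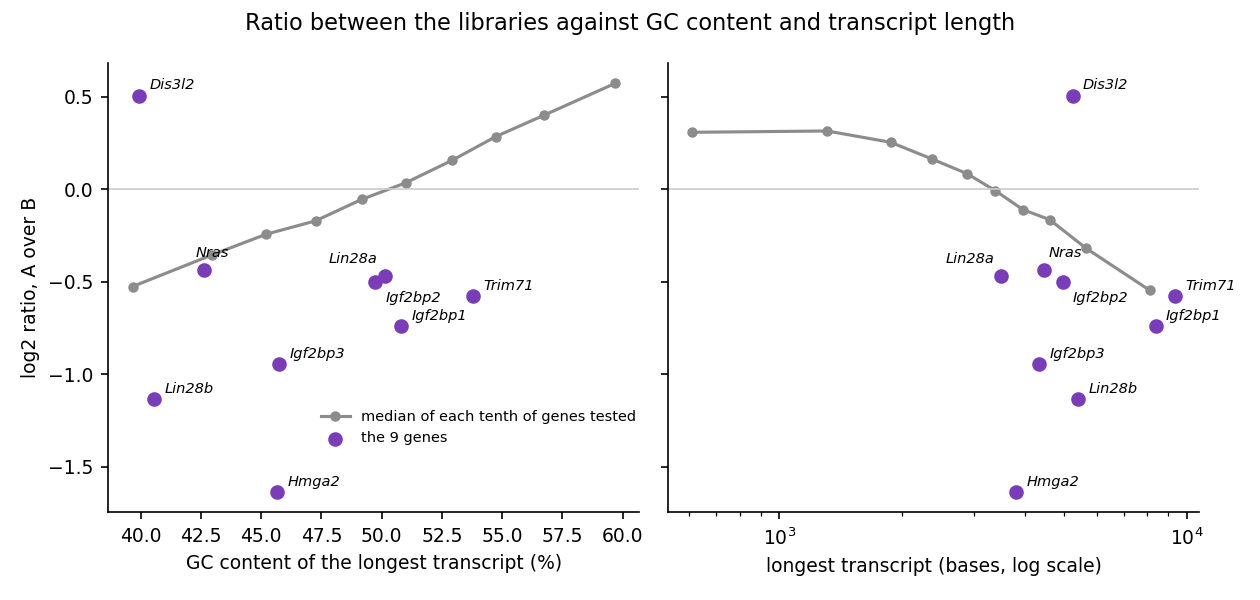
The log2 ratio of A over B against GC content (left, percent) and length (right, bases, log scale) of the longest transcript. Grey points are medians of 10 equal classes of the genes tested and purple points the 9 genes, of which Hmga2 lies far below the grey line in both panels and Dis3l2 above it.

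Other genes of the circuit gave the levels of the machinery around these members. Of 25 further genes known as let-7 targets, 23 were at 1 CPM or above in each library. The list median was 5.55 RPKM, set beside 14.6 RPKM for the 9 genes. The highest were Cdc34, a ubiquitin-conjugating enzyme gene, at 213 RPKM in A and 136 RPKM in B, the cyclin gene Ccnd1 at 52.4 RPKM in A and 57.4 RPKM in B, and Mycn at 42.8 RPKM in A and 36.4 RPKM in B. Acvr1c, a receptor gene, held 1 count in A and 0 in B. Of 24 tested between the libraries, 6 were higher in A and 16 higher in B, where 76.5% of all genes were called. Their median log2 ratio of A over B was -0.36, and -0.22 after correction for GC content and length.

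The 17 genes of let-7 processing and turnover were all at 1 CPM or above in each library. Their median was 17.7 RPKM. The highest were Hnrnpa1, whose product is known to bind a primary let-7 transcript, at 67.8 RPKM in A and 83.7 RPKM in B, Drosha at 52.4 RPKM in A and 75.7 RPKM in B, and Trim25, a cofactor of LIN28A, at 39.4 RPKM in A and 47.6 RPKM in B. Between the libraries 3 were higher in A and 13 higher in B, beside the same 76.5% called among all genes. Their median log2 ratio of -0.60 shrank to -0.15 after that correction, while the median of the 9 genes went to -0.38 and that of all genes was 0.0017. The uridylyltransferase genes Tut4 and Tut7, chosen after their values were seen as the partners of LIN28A, were far below Lin28a in each library. Tut4 stood at 5.72 RPKM in A and 8.29 RPKM in B, and Tut7 at 2.03 RPKM in A and 2.69 RPKM in B. Over the longest protein-coding transcripts Tut4 stood at 8.20 RPKM in A and 11.9 RPKM in B. Tut7 then stood at 5.09 RPKM in A and 6.76 RPKM in B, with both genes still far below Lin28a. Of the paralogs of Dis3l2, also chosen afterwards, Dis3 stood at 10.8 RPKM in A and 24.7 RPKM in B and Dis3l at 4.48 RPKM in A and 6.84 RPKM in B. Both were higher in B, unlike Dis3l2. Over the longest protein-coding transcripts Dis3l stood at 6.67 RPKM in A and 10.2 RPKM in B. This was below Dis3l2 in A (8.62 RPKM) and above it in B (5.65 RPKM). Dis3, at 16.2 RPKM in A and 37.2 RPKM in B on that scale, was above Dis3l2 in both libraries.

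Few reads fell on the let-7 hairpins themselves. Of 12 hairpin genes 10 had a row in the tables, none reached 1 CPM, and they summed to 2.4 CPM in A and 2.08 CPM in B. Mirlet7a-1 held 14 counts in A and 28 in B, Mirlet7g 16 in A and 19 in B, Mirlet7c-2 16 in A and 11 in B, and Mirlet7b 16 in A and 5 in B. Mirlet7i held 4 in A and 0 in B, and Mirlet7f-2 1 in A and 0 in B. Mirlet7a-2, Mirlet7c-1, Mirlet7d and Mir98 were at 0 in both, a count that leaves room for levels of up to 0.108 CPM in A and 0.0989 CPM in B. A count at a hairpin gene is not a count of mature let-7, which was not measured here.

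The genes with levels nearest to those of Lin28a in both libraries, by Euclidean distance of log2(RPKM + 0.5), were Pwp1 (54.2 RPKM in A and 71.9 RPKM in B), Ubqln1 (55.8 RPKM in A and 70.8 RPKM in B) and Nop14 (55.7 RPKM in A and 71.4 RPKM in B), at distances of 0.0479, 0.0598 and 0.0649. With 2 libraries this measures like levels and nothing more.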

How the data were processed

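Trizol-extracted RNA went into reverse-stranded Illumina TruSeq libraries, per the labels' protocols. The authors deposited raw counts per Ensembl gene, 1 library per file, with no normalization. STAR 2.4.2a and featureCounts 1.4.5-p1 are named in the submitters' processing notes, as is mm10. Not given in the sources used here are the annotation release, the strand setting and the treatment of multi-mapped reads. Of 43629 identifiers 42548 matched GENCODE M21 (GRCm38), with 99.8% of the counts of each library.

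CPM and RPKM were computed from the deposited counts. TMM factors (edgeR 4.0.16, R 4.3.3) over genes tested were 1.03 for A and 0.968 for B. The exact binomial test (scipy 1.17.1) used a filter of 1 CPM, a pseudocount of 0.5 for log2 ratios and an adjusted p under 0.05. It was tested on simulated counts with counting error as the only noise. That run does not show how the test behaves under further spread between real libraries. At 1 group of 2 libraries no test between conditions exists. GC content and length were fitted with mgcv 1.9.3. A 3′ UTR was the stretch after the stop codon in the protein-coding transcript where it is longest. Intervals and floors (3 counts for a count of 0) cover counting error only. At 252 counts or more per member and library, counting error was small beside the difference between libraries, with a 95% Poisson interval of 7.96 to 10.2 CPM for Hmga2 in A (9.04 CPM).

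The members, lists and tests were chosen with earlier results of these data known. Named genes were all 9 members, the 3 highest by mean RPKM and up to 2 under 1 CPM of the lists of other let-7 targets and of let-7 processing and turnover, every let-7 hairpin with a count and the 3 protein-coding genes nearest to Lin28a. Dgcr8 is named as the targeted gene, and the single marker genes and other genes outside this rule were chosen after their values were seen. Alternatives were DESeq2 1.42.0 size factors, no TMM, other filters, pseudocounts, lengths and library totals, single libraries, other UTRs and a longer seed match.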

Additional observations from a re-analysis of the deposited data

How the results depend on the processing

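The calls of the 9 genes (1 higher in A, 8 higher in B) were the same with DESeq2 size factors and with library totals without TMM. They also stayed with no filter and with a filter of 10 CPM. Pseudocounts of 0.1 and 1 enter only the log2 ratios and not the test, so they could not change these calls. Library totals gave 6418 genes higher in A and 4837 higher in B over all genes, in place of 5576 and 5579. Corrected for GC content and length, the log2 ratio of Nras reversed, to 0.0032 with its longest transcript and 0.056 with its coding transcript, against -0.44 uncorrected, and the cause was not tested. Lengths and corrections of coding transcripts were added after the data were seen. The number of genes at the same rank in the order of levels, 9 in the main order, was 6 without replicate A and 5 without replicate B, and 3 with the length of the longest protein-coding transcript. The share of Igf2bp1 in its family was 69.5% with the longest transcript and 65.2% with the longest protein-coding transcript, against 75.4% with the union of exons, a change that comes from the lengths alone. Of the 9 genes 7 held the let-7 match followed by A, against 8 with the 7 letters. No paired analysis was possible because the series has 1 group, and leaving out a library leaves no comparison between libraries. The annotated UTRs were not checked against reads, so which sites these cells' transcripts carry is not known here.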

Other observations

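miR-125, the mammalian relative of worm lin-4, is another microRNA known to target Lin28a. Its mature sequences, from RefSeq on GRCm38.p6, are shown with the shared seed in capitals.
miR-125a: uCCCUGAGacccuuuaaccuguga
miR-125b: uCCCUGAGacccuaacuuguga
The matching letters CTCAGGG were found on the transcript strand in the longest 3′ UTR of Lin28a, Lin28b, Trim71, Igf2bp3 and Dis3l2, at 1 match each, and in none of Hmga2, Igf2bp1, Igf2bp2 and Nras. The match is common, since 24.5% of genes of like UTR length held it for Lin28a, 31.2% for Lin28b and 37.0% for Trim71. Dis3l2 held it in a UTR of 350 bases, where 4.15% of genes of like length did. In Lin28a the match lies at base 797 of the UTR, before the first let-7 match at base 909.
Lin28a, chr4:134005301-134005330, minus strand: tgttctcaggtacatgagcaatCTCAGGGa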
